A study of Bos taurus with 31 samples.

Results

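De novo fatty acid synthesis, the pathway that builds fatty acids from acetyl-CoA in the cytosol, was followed in mammary epithelial organoids of dairy cows through 10 genes. They were taken by symbol from the 14084 rows of the count table. They comprise the acetyl-CoA suppliers ACLY and ACSS2, the carboxylases ACACA and ACACB, the synthase FASN, the elongase ELOVL6, the desaturase SCD, and the regulators SREBF1, THRSP and MLXIPL. All 10 had a row, and 9 had enough reads to be tested.

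In fatty acid synthesis, acetyl-CoA carboxylase makes malonyl-CoA, and fatty acid synthase joins malonyl units into short, medium and palmitate-length chains. Acetyl-CoA reaches the cytosol either from mitochondrial citrate, split by ATP citrate lyase (ACLY), or from acetate, activated by acetyl-CoA synthetase (ACSS2). Ruminants absorb acetate made by rumen microbes, and the mammary gland of ruminants is known to build milk fatty acids from acetate rather than from glucose. Milk fat is a main product of the lactating gland, and the enzymes are known targets of the transcription factor SREBP1, encoded by SREBF1.

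The organoids were clusters of mammary epithelium freed from biopsies by collagenase digestion, with the fat layer discarded per the labels' protocols. There were 15 libraries of virgin heifers aged 14 months and 16 libraries of cows that had been lactating for 40 to 60 days. Of the 16 cows, 15 are represented at both stages, and the cow of L495 only in lactation. The labels name no breed, treatment or transgene. Libraries are named by stage and animal, so that V502 and L502 come from 1 cow. Every lactating library was taken later in life and after calving, so stage cannot be told apart from age or parity.

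With each locus counted once, total counts were 12477568 to 38794104 per virgin and 17637505 to 45478555 per lactating library. Levels are given as CPM, read counts scaled to library size with TMM factors, which offset differences in composition between libraries. Per-library values support comparison of 1 gene between libraries, not of different genes, because CPM is not divided by transcript length. All 8 luminal and 5 of 6 basal epithelial markers had a row, and none was at 0 throughout. The summed level of the luminal markers was 1791 to 7647 CPM in virgin and 1281 to 3215 CPM in lactating libraries. In such bulk libraries fewer cells of a type and less RNA per cell cannot be told apart.

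Of the 9 tested genes, SCD, ACSS2, FASN, SREBF1 and ACACA rose in lactation, ACLY and ELOVL6 fell, and ACACB and THRSP were not called. The test was the quasi-likelihood test of edgeR with stage as the only term, at p under 0.05 after Benjamini-Hochberg adjustment over 13180 rows. The 5 rises are to be read against 24.2% of all tested rows called higher, and the 2 falls against 30.9% called lower. With the animal as a block FASN and ACACA lost their calls, and 27.9% of all rows were called higher. SCD and ACSS2 also passed the test for a change over 2-fold, which 5.39% of rows passed upwards. MLXIPL, with 1 to 19 reads per library, did not pass the filter on low counts. ACLY was the single member whose virgin and lactating values did not overlap, which held for 1.93% of tested rows. The median log2 fold change was 0.86 over the 9 tested genes and -0.08 over all tested rows.

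**Figure D1:**
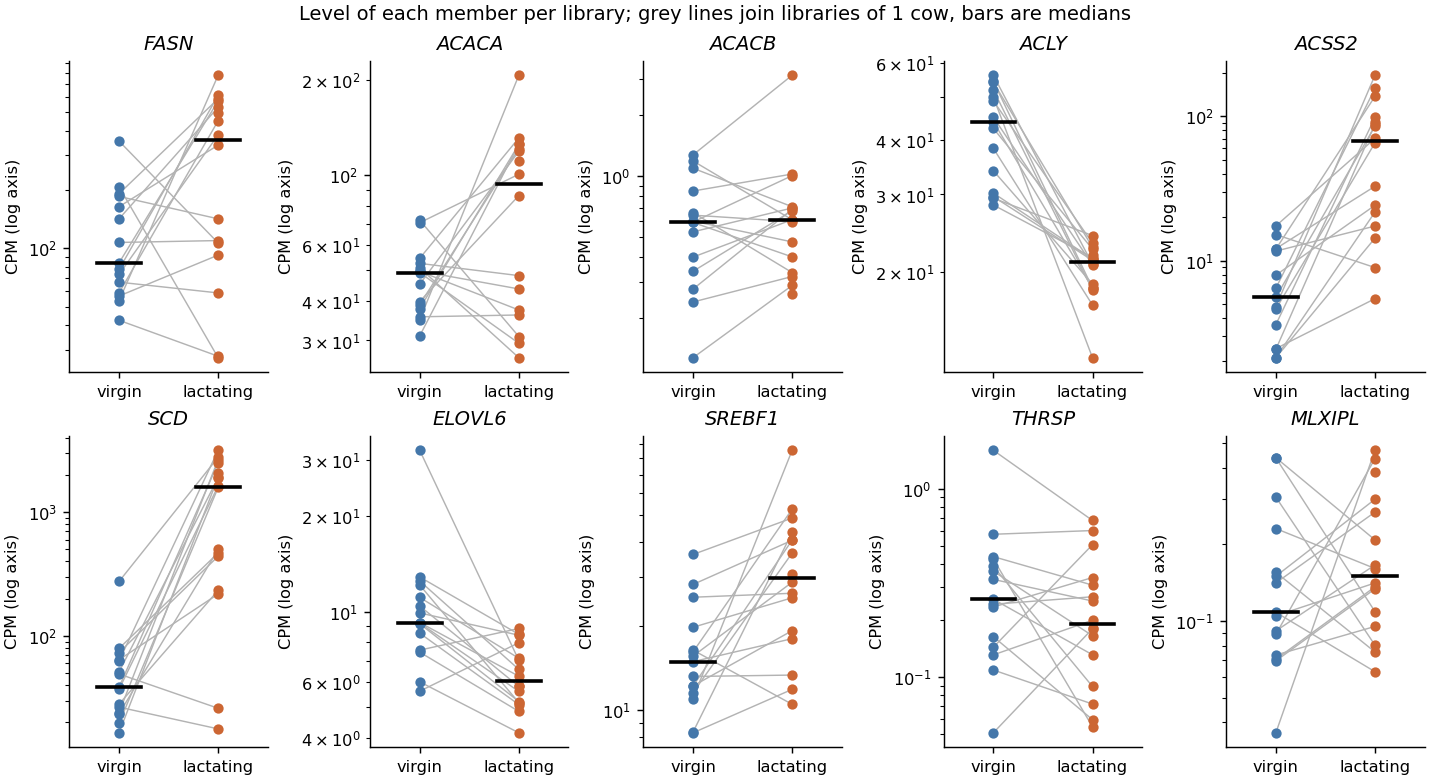
Level of each gene in every library in CPM on a log axis, virgin libraries in blue and lactating libraries in orange, with grey lines joining the libraries of 1 cow and black bars at the medians. All lactating ACLY values lie at 24.2 CPM or less and all virgin ones at 28.4 CPM or more, while lactating FASN, ACSS2 and SCD values spread over a wide range that overlaps the virgin one.

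The acetyl-CoA suppliers moved in opposite directions. ACLY (ENSBTAG00000016740), which splits citrate, stood at 28.4 to 56.2 CPM (median 44.0) in virgin and 12.7 to 24.2 CPM (median 21.0) in lactating libraries. Every lactating library lay below every virgin one, and ACLY was lower in 15 of 15 animals. Its means were 42.5 ± 10.1 CPM (SD, n = 15) and 20.2 ± 2.89 CPM (SD, n = 16), a log2 change of -1.07 ± 0.11 (SE) with an edgeR adjusted p of 1.945e-09.

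ACSS2 (ENSBTAG00000013303), which activates acetate, stood at 2.12 to 17.4 CPM (median 5.57) in virgin and 5.44 to 193 CPM (median 67.9) in lactating libraries. The groups overlapped through 4 lactating libraries, L538 (5.44 CPM), L478 (8.95 CPM), L531 (14.3 CPM) and L581 (17.4 CPM). The mean went from 7.36 ± 5.07 CPM (SD, n = 15) to 69.4 ± 56.9 CPM (SD, n = 16), a log2 change of 3.24 ± 0.46 (SE) with an edgeR adjusted p of 6.431e-07. ACSS2 was higher in 14 of 15 animals, with the cow of L478 the exception.

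Within a library the ratio of ACSS2 to ACLY counts does not depend on scaling between libraries. Its log2 value was -2.83 ± 0.83 (SD, n = 15) in virgin and 1.17 ± 1.63 (SD, n = 16) in lactating libraries. The difference of 4.00, a 16.0-fold shift, passed the threshold (two-sided permutation test of the stage labels, adjusted p = 2.5e-05 over 5 ratios). The raw p of 1e-05 is the smallest that 100000 resamples give. The ratio was higher in 15 of 15 animals, with a mean paired difference of 3.94 ± 1.80 (SD, n = 15). L538 had the lowest lactating log2 ratio (-1.97) and was the only lactating library below the highest virgin one (-1.64).

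Of the carboxylases, ACACA (ENSBTAG00000017567), which makes malonyl-CoA for synthesis, stood at 31.0 to 72.0 CPM (median 49.2) in virgin and 26.5 to 207 CPM (median 93.4) in lactating libraries. Lactating values lay both below and above the whole virgin range. The mean went from 47.5 ± 12.1 CPM (SD, n = 15) to 86.2 ± 52.2 CPM (SD, n = 16), a log2 change of 0.86 ± 0.25 (SE) with an edgeR adjusted p of 0.003868. ACACA was higher in 9 of 15 animals. The call was lost with the animal as a block (0.57, edgeR adjusted p = 0.09804) and without TMM factors (0.22, edgeR adjusted p = 0.3085).

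ACACB (ENSBTAG00000022058), whose malonyl-CoA restrains fatty acid entry into mitochondria, was near the limit of detection, with 7 to 62 reads per virgin and 7 to 115 per lactating library. It stood at 0.128 to 1.27 CPM (median 0.595) in virgin and 0.263 to 3.14 CPM (median 0.611) in lactating libraries. L490 was the highest at 3.14 CPM, with the next lactating library at 1.02 CPM. The log2 change of 0.25 ± 0.32 (SE) with an edgeR adjusted p of 0.5306 turned to -0.11 without L490 and to -0.18 without TMM factors. The log2 ratio of ACACA to ACACB differed between stages by 0.45 and did not pass the threshold (permutation adjusted p = 0.3227). Its SD among lactating libraries was 1.47 (n = 16).

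FASN (ENSBTAG00000015980), the synthase itself, stood at 42.5 to 355 CPM (median 83.9) in virgin and 27.3 to 775 CPM (median 360.4) in lactating libraries. V490 was the highest virgin library at 355 CPM and the next was V478 at 207 CPM. The lowest lactating libraries, L478 (27.3 CPM) and L538 (27.8 CPM), lay below every virgin one. The mean went from 124 ± 84.8 CPM (SD, n = 15) to 332 ± 249 CPM (SD, n = 16), a log2 change of 1.42 ± 0.42 (SE) with an edgeR adjusted p of 0.004669. FASN was higher in 10 of 15 animals and lower in the cows of L478, L490, L531, L538 and L581. The call was lost when the animal was a block, which drops L495 (1.02, edgeR adjusted p = 0.08839), and kept without L495 and no block (1.37, edgeR adjusted p = 0.007504).

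The log2 ratio of FASN to ACACA counts was 1.16 ± 0.76 (SD, n = 15) in virgin and 1.58 ± 0.83 (SD, n = 16) in lactating libraries. The difference of 0.42 did not pass the threshold (permutation adjusted p = 0.1899). Without L478 and L538, whose milk protein counts were the lowest of the stage, it was 0.69 and passed the threshold (permutation adjusted p = 0.01162). L478 and L538 also held the lowest lactating values of this ratio (-0.18 and -0.38). Leaving them out thus raises the difference by itself, and that p-value is no support for it.

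The enzymes that reshape the product also diverged. SCD (ENSBTAG00000045728), which puts a double bond into stearate and palmitate, stood at 16.5 to 276 CPM (median 38.4) in virgin and 17.7 to 3170.2 CPM (median 1609.8) in lactating libraries. V509, at 276 CPM, lay far above the next virgin library, V490 at 79.2 CPM. L538 (17.7 CPM) and L478 (26.0 CPM) lay within the virgin range, as did L581 (218 CPM) and L531 (234 CPM) because of V509 alone. The mean went from 57.9 ± 63.5 CPM (SD, n = 15) to 1386 ± 1099.8 CPM (SD, n = 16), a log2 change of 4.58 ± 0.60 (SE) with an edgeR adjusted p of 1.479e-07. SCD was higher in 13 of 15 animals, the exceptions being the cows of L478 and L538. Its counted locus was 3.25 times its RefSeq span, so reads of neighbouring sequence may be included. For the other 9 genes that quotient was 0.836 to 1.01.

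ELOVL6 (ENSBTAG00000010564), which lengthens palmitate to stearate, stood at 5.62 to 32.1 CPM (median 9.24) in virgin and 4.16 to 8.85 CPM (median 6.04) in lactating libraries. The highest virgin value came from V581, with the next at 12.8 CPM. The mean went from 10.9 ± 6.26 CPM (SD, n = 15) to 6.40 ± 1.44 CPM (SD, n = 16), a log2 change of -0.77 ± 0.18 (SE) with an edgeR adjusted p of 0.0005454. ELOVL6 was lower in 13 of 15 animals, and without V581 the log2 fold change was -0.57. The log2 ratio of SCD to ELOVL6 counts went from 2.11 ± 1.02 (SD, n = 15) to 6.79 ± 2.48 (SD, n = 16), a difference of 4.68 (permutation adjusted p = 2.5e-05) that was positive in 13 of 15 animals.

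**Figure D2:**
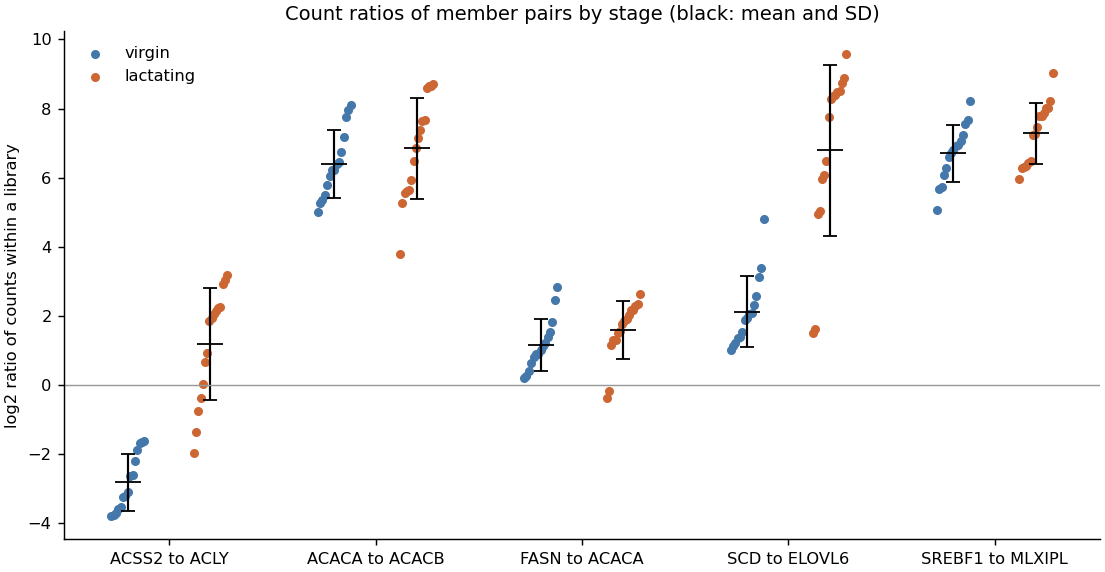
Log2 ratio of the counts of paired genes within each library, virgin in blue and lactating in orange, with the mean and SD in black. The ACSS2 to ACLY and SCD to ELOVL6 ratios shifted by 4.00 and 4.68 between stages, while the other 3 ratios overlapped over most of their range.

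Among the regulators, SREBF1 (ENSBTAG00000007884), which encodes the SREBP1 transcription factors, stood at 8.27 to 36.1 CPM (median 14.9) in virgin and 10.5 to 85.5 CPM (median 29.8) in lactating libraries. L502 was the highest lactating library and L478 and L538 the lowest, as for FASN. The mean went from 16.6 ± 7.81 CPM (SD, n = 15) to 33.3 ± 19.2 CPM (SD, n = 16), a log2 change of 1.00 ± 0.26 (SE) with an edgeR adjusted p of 0.001302. SREBF1 was higher in 14 of 15 animals, and lower in the cow of L478. Without TMM factors the call was lost (0.44, edgeR adjusted p = 0.05729).

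THRSP (ENSBTAG00000011666), known as Spot 14 and linked to lipogenesis in liver and mammary gland, gave 3 to 62 reads per virgin and 2 to 27 per lactating library. It stood at 0.0506 to 1.60 CPM (median 0.259) in virgin and 0.0544 to 0.679 CPM (median 0.191) in lactating libraries, with V581 highest. The log2 change of -0.49 ± 0.38 (SE) with an edgeR adjusted p of 0.2853 became -0.12 without V581.

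MLXIPL (ENSBTAG00000009153), which encodes the carbohydrate-responsive factor ChREBP, stood at 0.0364 to 0.437 CPM (median 0.108) in virgin and 0.0632 to 0.467 CPM (median 0.151) in lactating libraries. The groups overlapped over nearly all of that range. The log2 ratio of SREBF1 to MLXIPL counts differed by 0.58 (permutation adjusted p = 0.1178), and by 0.75 without L478 and L538 (permutation adjusted p = 0.02864). L478 held the lowest lactating value of this ratio (5.96), so leaving it out raises the difference by itself. At so few MLXIPL reads that ratio rests on counting error as well as on spread between cows, and with 5 counts added in place of 0.5 it differed by 0.66 (permutation adjusted p = 0.01972).

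**Figure D3:**
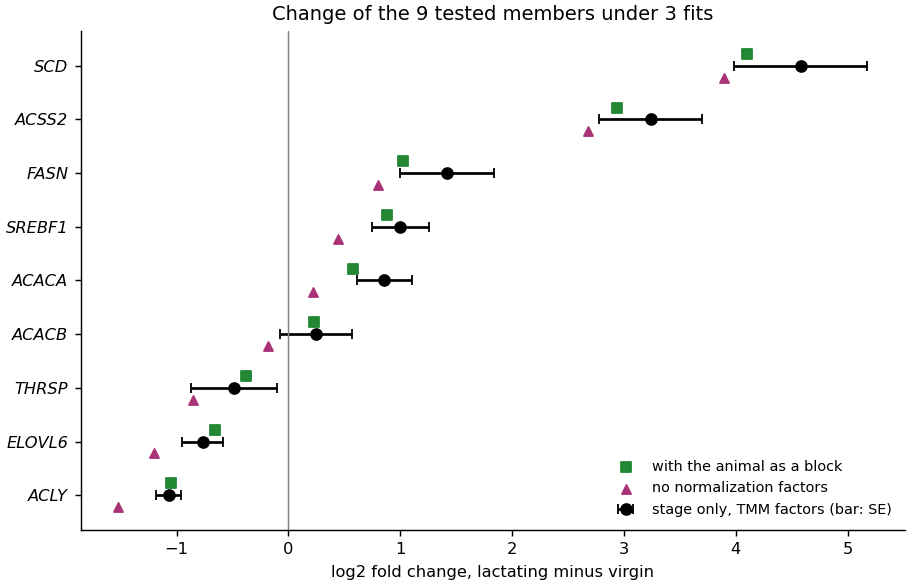
Log2 fold change of the 9 tested genes, lactating minus virgin, from the fit with stage only (black circles, bars are SE), with the animal as a block (green squares) and without normalization factors (purple triangles). SCD and ACSS2 lie above 2 in all 3 fits, ACLY lies below -1 in all 3, and ACACB lies on either side of 0.

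The changes given above are, unless stated otherwise, from the fit with TMM factors. Without TMM factors the median of all rows moved by -0.48 on the log2 scale, from -0.08 to -0.56. In that fit 3 members were called higher (SCD, ACSS2 and FASN) and 2 lower (ACLY and ELOVL6), where 10.5% of all rows were called higher and 58.8% lower. With the animal as a block 3 were called higher (SCD, ACSS2 and SREBF1) and the same 2 lower, where 27.9% of all rows were called higher and 27.8% lower. The block's counts of members lie near those shares.

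Lactating libraries fell into separate sets by milk protein share. With TMM factors the levels of the genes that rose in lactation did not overlap between these sets. That share is the percent of counts, each locus once, on CSN1S1, CSN1S2, CSN2, CSN3, LALBA, PAEP and GLYCAM1. It was 26.1% to 51.5% in 9 lactating libraries, 0.243% to 11.4% in the other 7, and 0.0281% to 0.682% in virgin libraries. FASN stood at 339 to 775 CPM in those 9 and at 27.3 to 141 CPM in those 7, against 42.5 to 355 CPM in virgin libraries. The FASN values of the 7 thus lay within or below the virgin range.

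The other rising genes were split in the same way. SCD stood at 1586.5 to 3170.2 CPM in the 9 and 17.7 to 500.3 CPM in the 7. ACSS2 stood at 65.5 to 193 CPM and 5.44 to 32.8 CPM, and ACACA at 86.2 to 207 CPM and 26.5 to 48.1 CPM. SREBF1 stood at 28.7 to 85.5 CPM and 10.5 to 26.2 CPM. None of these 5 genes overlapped between the sets on this scale, and 3.23% of all tested rows lay wholly higher in the 9. ACLY did not follow them, at 16.8 to 22.5 CPM in the 9 and 12.7 to 24.2 CPM in the 7, and ELOVL6 overlapped likewise, at 4.16 to 8.85 CPM and 5.21 to 8.48 CPM. The sets were seen in these values, so the difference between them is described and not tested.

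TMM factors moved with the sets, at 0.596 to 0.854 in the 9 libraries, 0.950 to 1.21 in the 7 and 0.909 to 1.55 in virgin ones. Without the factors FASN stood at 289 to 533 CPM in the 9 and 25.9 to 171 CPM in the 7. ACSS2 then stood at 41.9 to 133 CPM and 5.23 to 32.2 CPM, and SREBF1 at 20.4 to 58.8 CPM and 9.94 to 31.7 CPM. The sets were apart for FASN and ACSS2 on that scale and overlapped for SREBF1, and 0.789% of all tested rows then lay wholly higher in the 9.

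**Figure D4:**
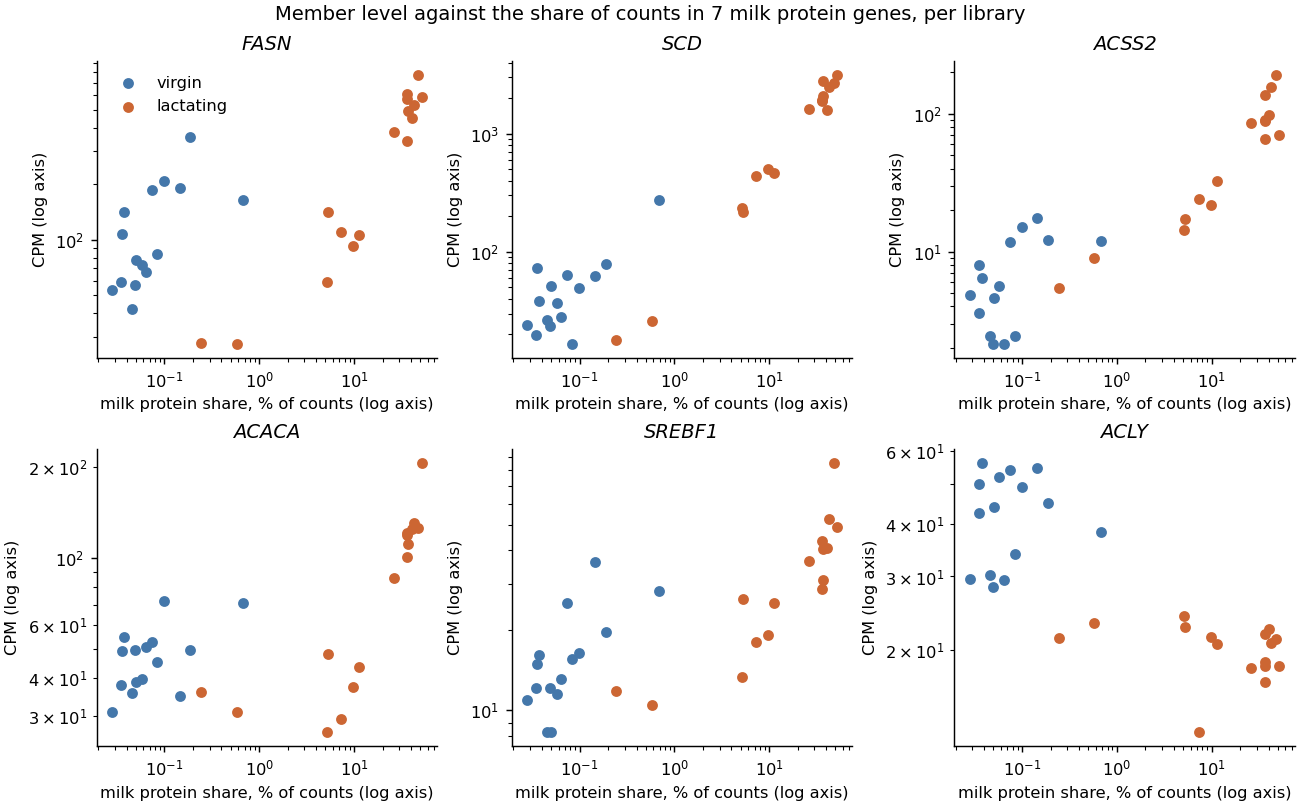
CPM of 6 genes against the percent of counts that fell on 7 milk protein genes, both on log axes, 1 point per library, virgin in blue and lactating in orange. The 9 lactating libraries with a share of 26.1% or more hold the highest SCD, ACSS2 and ACACA values, while lactating ACLY values stay at or below 24.2 CPM over the whole range of shares.

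Variation among libraries of 1 stage was compared with that of FASN over 27 relations, 9 genes each in 15 virgin libraries and in the 9 and 7 lactating ones. In virgin libraries FASN rose with ACSS2 (Pearson r = 0.859, permutation adjusted p = 0.00135; Spearman rho = 0.832, permutation adjusted p = 0.002835; n = 15). It also rose with SREBF1 (r = 0.775, permutation adjusted p = 0.00783; rho = 0.861, permutation adjusted p = 0.00216). Without the 2 libraries farthest from the median FASN level r was 0.858 and 0.888.

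SCD (r = 0.670, permutation adjusted p = 0.03402; rho = 0.732, adjusted p = 0.02457) and ACLY (r = 0.651, permutation adjusted p = 0.04234; rho = 0.668, adjusted p = 0.04012) also rose with FASN in virgin libraries, with r = 0.704 and 0.717 without the 2 farthest. Those last 2 relations missed the threshold without TMM factors (r = 0.613 and 0.385, permutation adjusted p = 0.06102 and 0.424). ACACA (r = 0.553, permutation adjusted p = 0.08896; rho = 0.557, adjusted p = 0.1291) and ELOVL6 (r = 0.302, adjusted p = 0.4908; rho = 0.293, adjusted p = 0.5024) were not shown to follow it. MLXIPL, at very few reads, passed by rank (rho = 0.682, permutation adjusted p = 0.04012) and not by Pearson (r = 0.568, permutation adjusted p = 0.08301).

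In the 7 lactating libraries with the lower levels, FASN rose with SREBF1 (r = 0.932, exact permutation adjusted p = 0.025; rho = 0.893, adjusted p = 0.05536), and r was 0.887 without the 2 farthest. Its relation with ACSS2 there (r = 0.876, exact permutation adjusted p = 0.04668; rho = 0.714, adjusted p = 0.2379) rested on those 2 libraries, without which r was 0.428. The relation with THRSP (r = 0.917, exact permutation adjusted p = 0.04234; rho = 0.750, adjusted p = 0.1997) fell to r = 0.608 and rests on very few reads. In the 9 lactating libraries with the higher levels no relation with FASN passed the threshold, and the smallest exact permutation adjusted p was 0.1578, for THRSP (r = -0.641; rho = -0.567, adjusted p = 0.296).

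Within those 9 libraries the members were also set against the milk protein share, over 10 relations. ACACA had the largest r (r = 0.858, exact permutation p = 0.007763, adjusted p = 0.07763; rho = 0.833, p = 0.008267, adjusted p = 0.08267; n = 9), and it fell to 0.609 without the 2 farthest libraries. THRSP, at very few reads, had r = -0.738 (exact permutation p = 0.01613, adjusted p = 0.08063; rho = -0.633, adjusted p = 0.2143), opposite in sign. SCD had r = 0.691 (exact permutation adjusted p = 0.1079; rho = 0.617, adjusted p = 0.2143) and FASN r = 0.626 (exact permutation adjusted p = 0.1729; rho = 0.383, adjusted p = 0.4464). None passed the threshold after adjustment.

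Cows were not shown to keep their order from the virgin to the lactating stage. Over 20 relations, the 10 genes each in 8 and in 7 animals, the smallest exact permutation adjusted p was 0.9163. For FASN r was -0.293 (rho = -0.238, exact permutation adjusted p = 0.98) in the 8 animals and 0.330 (rho = 0.250, exact permutation adjusted p = 0.98) in the 7.

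Genes whose pattern was most like that of FASN were ranked by Pearson r over the 31 libraries after removal of each stage's mean, as a description. They were RASSF4 (r = 0.929), a RAS-association domain protein, TMEM120B (0.925), a membrane protein, and FOLR1 and FOLR3 (0.914 each), folate receptors listed with identical counts and so 1 locus here. HHIPL2 (0.911), CSN3 (0.902), which encodes kappa-casein, and AGPAT1 (0.891), an acyltransferase of glycerolipid synthesis, followed. PXMP2 (0.886), a peroxisomal membrane protein, GPAM (0.879), which starts glycerolipid synthesis, and DNAJC12 (0.877), a co-chaperone, completed the 10. In the 9 lactating libraries with the higher levels alone, r with FASN was lower for each than over the 31, at 0.265 (AGPAT1) to 0.683 (CSN3). It was 0.465 (DNAJC12) to 0.809 (RASSF4) in the 15 virgin libraries, and 0.765 (CSN3) to 0.956 (RASSF4) in the 7 lactating libraries with the lower levels.

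Of 14 genes of citrate export and NADPH supply, 2 were higher, 5 lower and 7 not called, with a median log2 fold change of -0.10 against -0.08 over all rows. For this and the following lists, the shares of all tested rows were 24.2% higher and 30.9% lower, 10.5% and 58.8% without TMM factors, and 27.9% and 27.8% with the animal as a block. IDH1, the cytosolic isocitrate dehydrogenase that makes NADPH, rose 2.83-fold, from a mean of 146 to 413 CPM (edgeR adjusted p = 1.984e-07). ACO1, the cytosolic aconitase before it, rose by 1.22 ± 0.14 (edgeR adjusted p = 1.365e-08), and both rose in 15 of 15 animals. ME1, the cytosolic malic enzyme that makes NADPH in citrate-based lipogenesis, went from a mean of 19.5 to 6.89 CPM (-1.50 ± 0.22, edgeR adjusted p = 7.17e-07). RPE of the pentose phosphate pathway fell by 0.85 ± 0.18 (edgeR adjusted p = 0.0001984). With the animal as a block 4 of the list were higher and 4 lower, and without TMM factors 2 and 10.

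Of 13 tested genes of acyl-CoA activation and mitochondrial fatty acid synthesis, 2 were higher, 0 lower and 11 not called (1 and 9 without TMM factors), with a median of -0.16. Against 24.2% and 30.9% of all rows, both counts were below the background. ACSS1, the mitochondrial acetyl-CoA synthetase, rose by 1.24 ± 0.21 (edgeR adjusted p = 9.257e-06). CBR4, a subunit of mitochondrial ketoacyl reductase, rose by 0.48 ± 0.14 (edgeR adjusted p = 0.004107), and its value was -0.04 without TMM factors.

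Among 17 tested elongation and desaturation genes besides SCD and ELOVL6, 3 were higher, 2 lower and 12 not called (1 and 10 without TMM factors), with a median of -0.08. Both counts were below the 24.2% and 30.9% of all rows, and the 10 lower without TMM factors lie at the background of 58.8%. FADS1, the delta-5 desaturase of polyunsaturated fatty acids, rose by 1.44 ± 0.25 (edgeR adjusted p = 1.741e-05). HACD4, a dehydratase of chain elongation, rose by 0.63 ± 0.26 (edgeR adjusted p = 0.03825), a call lost on leaving out any 1 of 13 libraries (L468, L495, L531, L610, V478, V479, V490, V504, V507, V509, V581, V595 and V615). The adjusted p then ranged from 0.05294 to 0.1. The HACD4 value was 0.06 without TMM factors (edgeR adjusted p = 0.8577). SCD5, a second stearoyl-CoA desaturase, fell by 0.48 ± 0.16 (edgeR adjusted p = 0.009973), and ELOVL5, an elongase of polyunsaturated chains, by 0.42 ± 0.11 (edgeR adjusted p = 0.001258). Some virgin titles end in a letter whose meaning the labels do not give, and without those animals the calls of SCD5 (-0.32, edgeR adjusted p = 0.2108) and HACD4 (0.67, edgeR adjusted p = 0.1206) were lost.

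Of 8 tested genes of sterol sensing and SREBP processing, 2 were higher, 1 lower and 5 not called (1 and 4 without TMM factors), with a median of 0.12. The count of rises lies near the 24.2% of all rows called higher. INSIG1, which holds SREBP in the endoplasmic reticulum, rose by 2.57 ± 0.44 (edgeR adjusted p = 1.179e-05). SCAP, the SREBP escort protein, went from 37.4 to 18.7 CPM (-0.995 ± 0.12, edgeR adjusted p = 4.653e-08) and was lower in 15 of 15 animals. MBTPS1, the site-1 protease that cleaves SREBP, rose by 0.25 ± 0.10 (edgeR adjusted p = 0.0284), a call lost without V490 (0.21, edgeR adjusted p = 0.05015) and without the animals with a lettered virgin title (0.22, edgeR adjusted p = 0.1538). Its value was -0.27 without TMM factors.

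Of 21 lipogenic regulators and partners, 10 were higher, 4 lower and 7 not called, with a median of 0.24 (4 higher and 10 lower without TMM factors, median -0.18). Of all rows 24.2% were higher and 30.9% lower (10.5% and 58.8% without TMM factors, median -0.56). LPIN1, a phosphatidate phosphatase and coactivator, rose by 1.69 ± 0.36 (edgeR adjusted p = 0.0002037), and PPARD, a fatty acid-sensing nuclear receptor, by 1.48 ± 0.16 (edgeR adjusted p = 2.928e-09). NFYC and NFYA, subunits of the NF-Y factor that acts beside SREBP, fell by 0.53 ± 0.12 (edgeR adjusted p = 0.0003259) and 0.49 ± 0.11 (edgeR adjusted p = 0.0003759).

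AMPK is the kinase that switches acetyl-CoA carboxylase off. Of 9 tested genes for it and its activators, 0 were higher, 3 lower and 6 not called (0 and 7 without TMM factors, 1 and 3 in the blocked fit). Their median was -0.22. The 3 falls lie near the 30.9% of all rows called lower. The regulatory subunits PRKAG2 and PRKAG1 fell by 0.98 ± 0.16 (edgeR adjusted p = 6.977e-06) and 0.74 ± 0.08 (edgeR adjusted p = 6.191e-09).

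**Figure D5:**
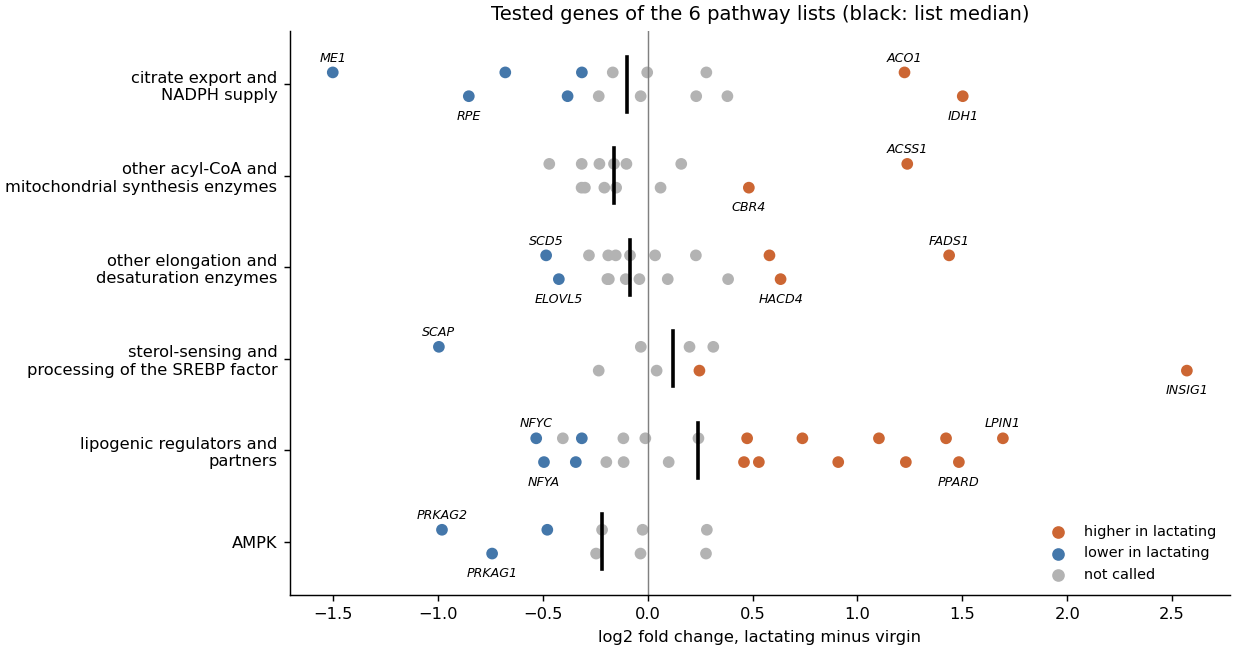
Log2 fold change, lactating minus virgin, of every tested gene in 6 pathway lists, coloured by call, with the list median as a black bar. IDH1 and ACO1 lie on the right and ME1 on the left of the first list, and INSIG1 (2.57) and SCAP (-0.995) lie at opposite ends of the sterol-sensing list.

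Adipocytes also make fatty acids, and their listed markers did not all move the same way with stage. Of 14 listed adipocyte markers 9 had a row, all of which were tested, and 6 were higher, 1 lower and 2 not called (3 higher and 2 lower without TMM factors). The summed level of the 9 was 43.5 to 221 CPM in virgin and 76.8 to 1883 CPM in lactating libraries. Most of the lactating sum came from FABP4, a fatty acid-binding protein (mean 24.0 and 498 CPM), and LPL, lipoprotein lipase (mean 4.81 and 255 CPM). Of the list, LPL, GPD1, LIPE and PNPLA2 are also known in mammary epithelium or other cells, so the sum is not specific to adipocytes. Of the 4 defining markers, ADIPOQ (adiponectin) stood at 0.236 to 2.88 CPM at the virgin stage and 0.436 to 2.52 CPM in lactation (0.61 ± 0.30 on the log2 scale, edgeR adjusted p = 0.08801). It was called higher with the animal as a block (0.73, edgeR adjusted p = 0.01022), without L478 and L538 (0.75, edgeR adjusted p = 0.0269), without V509 (0.72, edgeR adjusted p = 0.04537) or without V610 (0.80, edgeR adjusted p = 0.01914). ADIPOQ was not called without TMM factors (0.07, edgeR adjusted p = 0.8522) or without the animals with a lettered virgin title (0.42, edgeR adjusted p = 0.3255). PLIN1 (perilipin of adipocyte droplets) stood at 1.06 to 4.79 CPM and 0.682 to 1.66 CPM (-1.18 ± 0.20, edgeR adjusted p = 7.854e-06). LEP and CIDEC had no row under those symbols, so their levels are not known here. The 6 endothelial markers all rose, from a summed 33.5 to 678 CPM at the virgin stage to 236 to 1530 CPM, as did the 5 tested leukocyte markers. Of 8 luminal epithelial markers 1 was higher and 5 lower (median -0.78), and of 5 tested basal markers 0 were higher and 2 lower (median -0.06). Of 6 fibroblast markers 0 were higher and 4 lower (median -1.004). Their summed level had a median of 946.5 CPM in virgin and 1006 CPM in lactating libraries. V502 held 6201 CPM of COL1A1, with the next virgin library at 504.4 CPM. Of the 4 lower markers, COL1A1, COL1A2 and COL3A1 were higher in lactation in 8, 9 and 8 animals, and DCN in 3. The part of these cells in the changes of the fatty acid synthesis genes was not tested.

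Of the 10 genes, 3 had an adjusted p under 0.05 in the authors' deposited table. Turned to lactating minus virgin, their log2 fold changes in the authors' deposited table were 4.60 for SCD (adjusted p = 3.46e-12), 3.26 for ACSS2 (2.81e-09) and -1.05 for ACLY (3.59e-13). FASN stood at 1.44 in the authors' deposited table, with an adjusted p of 1.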

How the data were processed

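Strand-specific poly-A libraries were sequenced from organoids of 16 cows, per the labels' protocols. The authors deposited whole-number read counts per gene with no normalization, and a second table with RPKM values, a log2 fold change and an adjusted p-value per gene. Its unit was judged from its ratio to the deposited counts, and the RPKM values served only to recover the length of each counted locus. The tools listed by the submitters' processing notes are featureCounts 1.5.2, Subread, HISAT2 2.0, StringTie 1.3.2, SAMtools and edgeR, with build UMD3.1. Of their settings, the strand setting of the counting included, nothing is given in the sources used here. No coordinates or sequences are printed, since the RefSeq gene table used for names and spans is of another build (ARS-UCD2.0).

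Counts were analysed in R 4.3.3 with edgeR 4.0.16: filterByExpr (minimum count 10, minimum total 15; 13180 of 14084 rows kept), TMM, estimateDisp, robust glmQLFit and glmQLFTest with stage as the only term, and Benjamini-Hochberg adjustment over all tested rows. Changes over 2-fold were tested with glmTreat (log2 fold change 1). The SE is the log2 fold change divided by the square root of F. CPM was computed over all rows, in which some loci are listed more than once, so levels are lower than over distinct loci. Ratios were taken as log2 with 0.5 counts added and compared by permutation tests (100000 resamples, two-sided). Relations used log2 CPM (prior count 2) with permutation tests, exact below 10 libraries and two-sided. The split of lactating libraries at a milk protein share of 20% was set after the values were seen. The fit was tested on simulated data.

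The 10 genes, the pathway lists and the tests were chosen with earlier results of these data known. Named genes were the 10 members, the 2 largest called rises and falls of each list, the defining adipocyte markers and the 10 genes most like FASN with a symbol and a mean log2 CPM of at least 2. One listed gene is not reported here and was left out of its list. Each sample is a separate cow or stage, and replicate numbers are animals, so by the series design they pair the libraries. With stage means removed, the 15 pairs of libraries correlated at 0.0702 to 0.392, against a mean of -0.016 between animals. No 2 libraries of a stage agreed within sampling noise (lowest chi-square per degree of freedom 36.8). Alternatives were the animal as a block, RLE factors, no factors, other filters, each locus once, DESeq2 1.42.0, limma-voom (limma 3.58.1) and leaving out libraries.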

Additional observations from a re-analysis of the deposited data

How the results depend on the processing

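SCD, ACSS2, ACLY and ELOVL6 kept their direction and call in each of the 41 alternative fits. With the animal as a replicate block, 3 of the fatty acid synthesis genes were called higher in place of 5, because FASN (1.02) and ACACA (0.57) missed the threshold, and it changed the call of no other member. Without normalization factors 3 were called higher, ACACB turned to -0.18, MBTPS1 to -0.27 and CBR4 to -0.0404, and 1389 rows were higher and 7751 lower over the whole table, against 3189 and 4069, so that 15.2% in place of 43.9% of calls were higher. Leaving out 1 library at a time gave ACACB values from -0.11 (without L490) to 0.36 (without V490). Without L478 and L538 the log2 ratios of FASN to ACACA (0.69) and SREBF1 to MLXIPL (0.75) passed the threshold. Both libraries held the lowest lactating FASN to ACACA ratios, and L478 the lowest SREBF1 to MLXIPL ratio. Leaving them out thus raises these differences by itself. The SREBF1 to MLXIPL ratio also passed with 5 counts added (0.66). Paired differences within 15 animals changed no call on the 5 ratios. Of the relations, computed again without normalization factors, those of FASN with ACLY (r = 0.385) and SCD (0.613) in virgin libraries and with ACSS2 (0.898) in 7 lactating libraries missed the threshold. There r also changed sign for FASN with ACLY in 9 lactating libraries (-0.026) and with ELOVL6 in 7 (0.133), for the virgin and lactating levels of ACLY (0.178) and ACSS2 (0.049) in 8 animals, and for ACLY with the milk protein share (-0.402). Another prior count (0.5) changed no call. THRSP was not tested in 5 of the 31 fits that leave out 1 library, and MLXIPL was tested only without a filter (0.29, edgeR adjusted p = 0.4823). ACACB, THRSP and MLXIPL had so few reads that depth limits their comparison.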

Other observations

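Single virgin libraries stood apart in some of the genes. V509 held 276 CPM of SCD, with the next virgin library at 79.2 CPM, and had the highest virgin milk protein share (0.682%), and it also had the lowest virgin THRSP level (0.0506 CPM). V581 held the highest virgin levels of ELOVL6 (32.1 CPM) and THRSP (1.60 CPM), and also the highest level of the luminal keratin gene KRT8 (2439 CPM, with V479 next at 2121 CPM), while V479 had the second lowest virgin ELOVL6 (6.01 CPM). V490 held the highest virgin FASN (355 CPM) and ACACB (1.27 CPM), and its animal's lactating library held the highest lactating ACACB (3.14 CPM). V502 held 6201 CPM of the collagen gene COL1A1, with the next virgin library at 504.4 CPM, and the lowest virgin ACACA (31.0 CPM) and MLXIPL (0.0364 CPM).

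The change within a cow differed widely. The cow of L502 had the largest rise of FASN (3.85 on the log2 scale), ACSS2 (5.31) and SREBF1 (2.96). The cow of L478 had the lowest difference for FASN (-2.92), ACSS2 (-0.76), SCD (-0.92), ACACA (-1.22) and SREBF1 (-0.65), while its ACLY fell as in every other animal, where the differences ran from -1.97 to -0.28.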
